A study of Mus musculus with 28 samples.

Results

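The genes described here are 5 genes of glutamate reception, selected by symbol: Gria1 and Gria3, which encode AMPA receptor subunits, Grm3 and Grm8, which encode metabotropic glutamate receptors, and Neto2, which encodes an auxiliary subunit of kainate receptors. Each was represented by 1 transcript cluster of the array with a single gene symbol, so all 5 members were found among 13617 genes. The clusters were 6781201 for Gria1, 7010835 for Gria3, 6983950 for Neto2, 6936140 for Grm3 and 6952284 for Grm8. The genes were chosen with earlier results of these data known, so counts of them beside shares of all genes are a description. Expression was measured in sorted amacrine cells of the mouse retina, with 200 cells per sample.

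Arc amacrine cells, which carried EGFP under the control of an Arc transgene (line Tg(Arc-EGFP)194Gsat/Mmcd), gave 21 arrays between P1 and P20, 1 for each postnatal day and 2 at P6, and 1 array at P43. Starburst cells are amacrine cells that release acetylcholine. They were marked by the Cre allele 129S6-Chat_tm1(cre)Lowl/J, which switched on RFP from a Rosa26-LSL-RFP reporter wherever Cre had acted, and gave 3 arrays at P3 and 3 at P18. No treatment was applied to either line. The labels give both lines the same mixed background, of C57BL/6J with an FVB/N-Swiss Webster hybrid, whereas the protocol describes such hybrids, which carry a recessive mutation for photoreceptor degeneration, only for mice of the repository that the Arc line's name refers to. Those were crossed to C57BL/6J and their F2 generation was used, while other lines had been kept on C57BL/6J for generations. Each sample came from 1 retina. The labels call the Arc batch "A and B" and the starburst batch "B", so the effects of batch, fluorophore, line and cell type cannot be told apart. No batch term entered the tests within Arc cells, and the part of batch in the changes between Arc days was not tested.

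Glutamate is the transmitter by which bipolar cells drive amacrine cells. AMPA and kainate receptors are glutamate-gated channels that carry the fast response, and AMPA receptors are tetramers of the subunits encoded by Gria1 to Gria4. Neto proteins are single-pass membrane proteins that bind kainate receptors and alter their gating. Grm3 belongs to the group II and Grm8 to the group III metabotropic receptors, which act through inhibitory G proteins, and group III receptors are mostly found on presynaptic terminals.

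RefSeq promoter windows (GRCm38.p6, from 250 bases before to 50 after the transcription start) were matched for 3 of the 5 genes, Neto2, Grm3 and Grm8. Gria1 and Gria3 had no entry. They are shown because Grm3 and Grm8 were higher and Neto2 was lower in starburst cells at P18 than at P3. For genes with several starts the most upstream start was taken. All 3 lie on the minus strand, Neto2 at chr8:85700875-85701174, Grm3 at chr5:9725303-9725602 and Grm8 at chr6:28135097-28135396. Sequences run 5′ to 3′ along the gene, and capitals mark each match to the GC box GGGCGG on either strand:
Neto2: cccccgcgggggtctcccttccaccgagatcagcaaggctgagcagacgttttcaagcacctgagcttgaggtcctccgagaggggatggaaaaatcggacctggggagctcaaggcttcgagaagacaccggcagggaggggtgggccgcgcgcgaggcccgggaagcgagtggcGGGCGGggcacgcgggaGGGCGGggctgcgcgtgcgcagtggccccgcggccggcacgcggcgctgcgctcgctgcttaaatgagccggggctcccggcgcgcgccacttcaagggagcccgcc
Grm3: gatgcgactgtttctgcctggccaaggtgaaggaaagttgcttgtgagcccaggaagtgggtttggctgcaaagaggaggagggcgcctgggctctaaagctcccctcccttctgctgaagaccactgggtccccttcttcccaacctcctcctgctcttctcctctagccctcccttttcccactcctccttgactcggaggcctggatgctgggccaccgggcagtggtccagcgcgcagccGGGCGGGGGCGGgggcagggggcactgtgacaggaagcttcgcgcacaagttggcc
Grm8: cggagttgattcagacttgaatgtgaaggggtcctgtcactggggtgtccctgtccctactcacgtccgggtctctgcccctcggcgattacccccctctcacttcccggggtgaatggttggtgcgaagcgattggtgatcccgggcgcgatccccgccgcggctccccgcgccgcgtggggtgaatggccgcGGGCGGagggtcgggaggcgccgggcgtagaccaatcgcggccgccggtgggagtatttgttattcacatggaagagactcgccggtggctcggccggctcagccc

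The Neto2 window held 2 GC boxes, the Grm3 window 2, which adjoin, and the Grm8 window 1. Of 27025 promoters of the same length 35.9% held at least 1. CpG dinucleotides numbered 36 for Neto2, 11 for Grm3 and 33 for Grm8, against a median of 7 over these promoters. The homeodomain core TAATTA, present in 5.32% of promoters, and the CRE core TGACG, present in 20.9%, were searched on both strands and had no match in the 3 windows. The E box CANNTG, present in 72.1% of promoters, had 1 match each for Neto2 and Grm8 and none for Grm3. These matches are a description of the letters only.

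Values are log2 expression. A background level was set at the 95th percentile of 708 olfactory receptor genes, each averaged over the arrays of a cell type, which gave 3.47 in Arc and 3.91 in starburst cells. The sort markers fitted the labels: Chat, the acetylcholine-synthesizing enzyme, had a mean of 5.32 ± 0.41 (SD, n = 3) in the starburst arrays of P3, of 7.19 ± 0.34 (SD, n = 3) in those of P18 and of 2.84 in the 7 Arc arrays of P1 to P6. Of 6 starburst markers 0 lay above background in Arc cells of any window, and 5 did so in starburst cells at P3. All 9 pan-amacrine markers lay above background in Arc cells, 8 in starburst cells at P3 and 7 at P18. Rod markers above background numbered 3 of 9 in early and 6 in late Arc arrays, and 2 and 5 at the starburst ages. Their mean level moved from between 3.10 and 3.46 in Arc arrays of P1 to P6 to between 3.73 and 4.32 in those of P14 to P20, and from between 3.35 and 3.49 to between 4.10 and 4.31 in starburst cells. Of 7 Muller glia markers 3 lay above background in early and in late Arc arrays and 1 at each starburst age. Their mean moved from between 3.31 and 3.71 to between 4.02 and 4.44 in Arc cells, and lay between 3.22 and 3.69 in starburst cells of both ages. None of 8 cone markers lay above background in these groups. Of 9 bipolar markers 4 lay above background in early and late Arc arrays, and 3 and 4 at the starburst ages. Of 8 ganglion markers 6 did so in early and late Arc arrays, and 4 and 1 at the starburst ages. The mean of 3 astrocyte markers moved from between 3.05 and 3.50 to between 4.27 and 4.86 in Arc cells. In starburst cells it moved from between 3.18 and 3.39 to between 4.14 and 4.32. The part of RNA of other cell types in the changes with age below was not tested. In sorted samples, fewer cells of a type and less RNA per cell cannot be told apart.

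The Arc array of P1 had the lowest mean correlation across genes with arrays of neighbouring days, at 0.956. The next days rose from there, with 0.963 at P2, 0.966 at P3 and 0.974 at P4, and P1 has neighbours on the later side only. In the P1 array the 5 horizontal cell markers averaged 3.78, against at most 3.36 in arrays of P2 to P6. The 6 endothelial and mural markers averaged 3.26 in it, against at most 3.18, and the 8 ganglion cell markers 3.96, against at most 3.86. The part of this in its values was not tested. Test results that rest on it are given with and without it, but the correlations with the most alike genes only with it.

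The changes with age were tested with limma, as a linear trend over the 21 Arc arrays of P1 to P20, stated as the fitted change between those days, and as the difference of P18 and P3 over the 6 starburst arrays. P-values were adjusted by Benjamini-Hochberg over 13617 genes. In the Arc trend 3 of the 5 genes passed the threshold of 0.05, beside 37.7% of all genes tested. In the trend 14.7% of all genes were higher and 23.0% lower, and 2 members were higher and 1 lower. In starburst cells all 5 passed, 3 higher and 2 lower, beside 8.65% of all genes, 4.76% higher and 3.89% lower. Gria1 was lower and Gria3 higher with age in both cell types, Neto2 rose in Arc and fell in starburst cells, and Grm3 and Grm8 passed in starburst cells alone. The median change of all genes was -0.13 in the Arc trend and -0.06 in starburst cells.

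**Figure D1:**
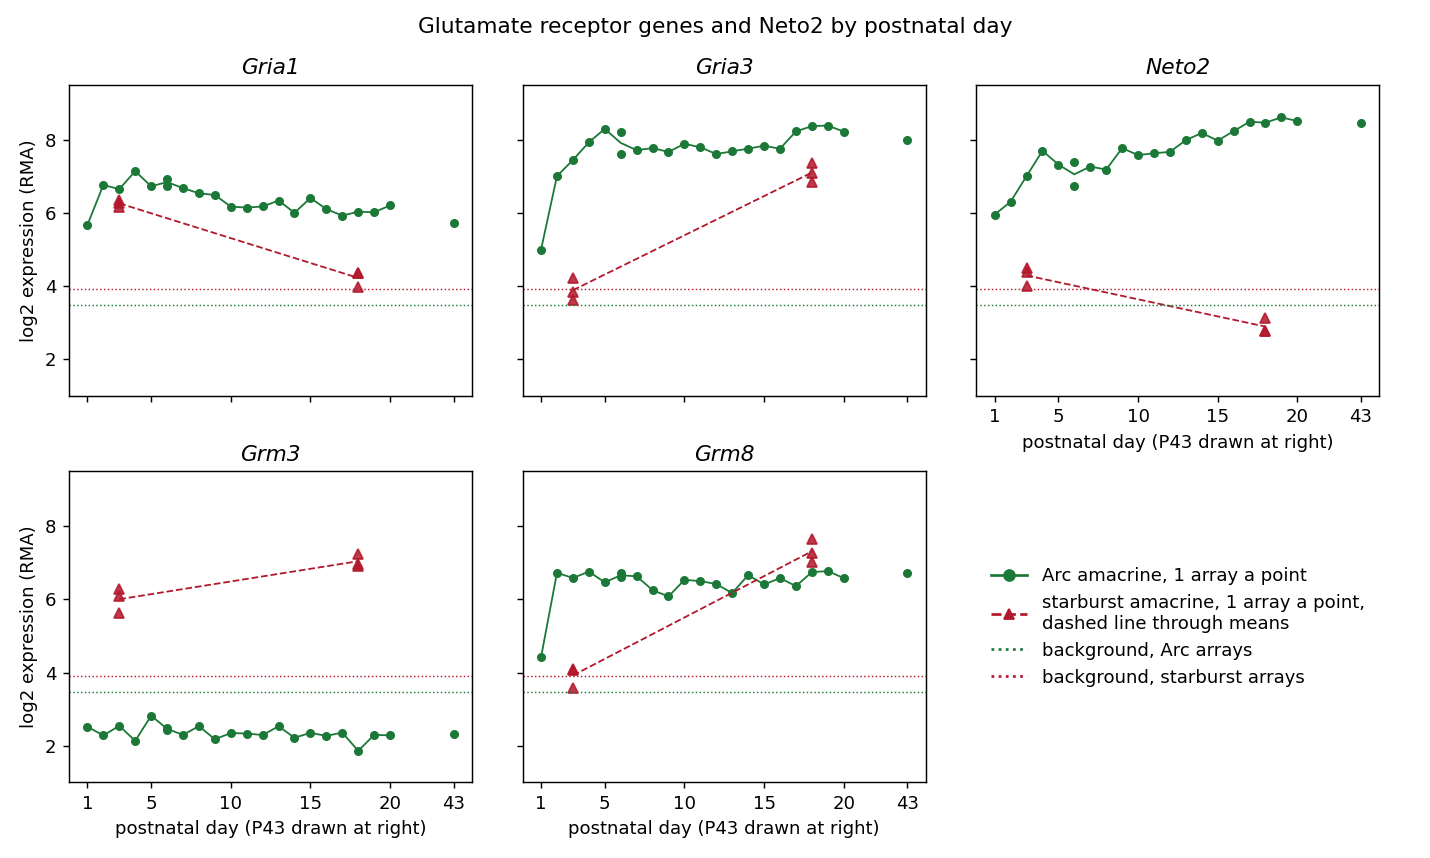
Log2 expression (RMA) of the 5 genes against postnatal day, 1 point per array, for Arc (green circles, line through daily means) and starburst cells (red triangles, dashed line through the means of P3 and P18), with dotted lines at the background of 3.47 (Arc) and 3.91 (starburst). Neto2 climbs in Arc cells and falls in starburst cells, Grm3 lies below background on all Arc arrays, and Gria3 and Grm8 start at background in starburst cells at P3.

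Gria1 encodes GluA1. In Arc cells its values ran from 5.67 at P1 over a median of 6.75 to 7.14 at P4 in the 7 early arrays (P1 to P6). They lay between 6.15 and 6.68, with a median of 6.34, in the 7 middle arrays (P7 to P13) and between 5.93 and 6.41, with a median of 6.03, in the 7 late arrays (P14 to P20), and the P43 array stood at 5.72. The late arrays lay below those of P2 to P6, of which the lowest was 6.65, but above the P1 array. Between P1 and P20 the log2 level of Gria1 fell by 0.68 ± 0.22 (SE over 21 arrays) at adjusted p = 0.0172 by limma. The fall was 1.01 (a change of -1.01, adjusted p = 1.04e-05) without the P1 array. It did not pass when each array was centred on its median (-0.57, adjusted p = 0.0655), over P1 to P16 alone (adjusted p = 0.201) or against the logarithm of the day (adjusted p = 0.197).

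In starburst cells Gria1 measured 6.28, 6.35 and 6.16 at P3 and 4.34, 4.36 and 3.96 at P18. The ages did not overlap, and the P18 values came close to the background of 3.91. The gene fell by 2.04 ± 0.17 (SE, n = 3 and 3) on the log2 scale, which is 4.11-fold, at adjusted p = 0.000119 by limma. Ordered by mean, its level was highest in early Arc cells, followed by middle Arc cells, starburst cells at P3, late Arc cells, Arc cells at P43 and starburst cells at P18. The arrays of the first 4 of these groups overlapped from each to the next, while starburst cells at P18 lay apart.

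Gria3 encodes GluA3. In Arc cells it stood at 5.0 at P1, 7.01 at P2, 7.45 at P3, 7.93 at P4 and 8.30 at P5. From P7 to P13 the values kept within 7.61 and 7.89, and from P17 to P20 within 8.22 and 8.39, with 8.01 at P43. The level at P5 was therefore inside the range of P17 to P20, and the middle arrays lay below both. The fitted change of 1.30 ± 0.40 (SE, 21 arrays) was positive at adjusted p = 0.0129 by limma. The P1 array carried much of it: without P1 the change was 0.65 at adjusted p = 0.0235, and over P1 to P16 alone the trend did not pass (1.28, adjusted p = 0.166).

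Starburst cells had Gria3 values of 3.83, 4.21 and 3.61 at P3 and of 6.86, 7.36 and 7.09 at P18. The P3 values straddled the background, with a mean of 3.89, and no P18 value was near it. The gene rose by 3.22 ± 0.20 (SE, n = 3 and 3) at adjusted p = 2.7e-05 by limma, which amounts to at least 9.15-fold when the P3 mean is set to background. In the order of levels starburst cells at P3 came last, apart from all others, and starburst cells at P18 came next, overlapping the early Arc arrays.

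Neto2 rose through the Arc series. It measured 5.95 at P1, 6.31 at P2 and 7.01 at P3, and its early arrays had a median of 7.01 and a highest value of 7.70. The middle arrays lay between 7.18 and 7.99, with a median of 7.63, and the late arrays between 7.98 and 8.61, with a median of 8.47. All 7 late arrays exceeded all 7 early arrays, which 8.81% of all genes did in one direction or the other, and P43 at 8.46 lay within the late range. Neto2 rose by 2.13 ± 0.21 (SE, 21 arrays) on the log2 scale, or 4.39-fold, at adjusted p = 1.46e-08 by limma, and by 1.94 without P1.

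The Neto2 rise was also tested between the windows. Late exceeded middle arrays by 0.77 ± 0.21 (SE, 7 and 7 arrays) at adjusted p = 0.0245 by limma, where 6.71% of all genes passed and 4.71% were higher. This call was lost without P7, P8 or P19 (adjusted p of 0.061, 0.0635 and 0.0578). Middle exceeded early arrays by 0.67 ± 0.21 (SE), with an unadjusted p of 0.00347 and an adjusted p of 0.131, where 0.492% of all genes passed, 0.345% higher and 0.147% lower. No other member passed in either window comparison by limma, and none of them had an unadjusted p under 0.05. Their intervals for late minus middle were -0.59 to 0.06 for Gria1, -0.33 to 1.02 for Gria3, -0.31 to 0.06 for Grm3 and -0.30 to 0.73 for Grm8.

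In starburst cells Neto2 was low at both ages, with 4.37, 4.0 and 4.49 at P3 and 2.77, 2.77 and 3.13 at P18. All P3 values were above and all P18 values below the background. The measured difference was -1.40 ± 0.19 (SE, n = 3 and 3) at adjusted p = 0.00176 by limma, a fall of at least 1.30-fold when the P18 mean is set to background. Both starburst ages lay below every Arc array.

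Grm3 was at background in Arc cells throughout. Its values there ran from 1.86 at P18 to 2.82 at P5, all under 3.47, with medians of 2.49, 2.33 and 2.28 in the early, middle and late arrays and 2.32 at P43. The Arc trend of -0.27 ± 0.12 (SE, 21 arrays) had an adjusted p of 0.0803 by limma, and no fold is given for values under background. In starburst cells Grm3 measured 5.64, 6.1 and 6.28 at P3 and 6.96, 6.92 and 7.26 at P18. It rose by 1.04 ± 0.19 (SE, n = 3 and 3), or 2.06-fold, at adjusted p = 0.0106 by limma, and the ages did not overlap.

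Grm8 measured 4.42 in the Arc array of P1 and 6.73 at P2, and from there on all Arc arrays kept between 6.08 and 6.78, with 6.71 at P43. The medians were 6.61, 6.42 and 6.58 in early, middle and late arrays, whose ranges overlapped. The trend of 0.51 ± 0.32 (SE, 21 arrays; interval -0.15 to 1.18) did not pass (adjusted p = 0.208 by limma). Without the P1 array it was -0.04 at adjusted p = 0.867, and against the logarithm of the day, which weights the first days more, it was 0.94 at adjusted p = 0.0394.

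Starburst cells had Grm8 values of 3.59, 4.11 and 4.06 at P3, around the background of 3.91, and of 7.02, 7.65 and 7.28 at P18. Grm8 rose by 3.39 ± 0.21 (SE, n = 3 and 3) at adjusted p = 2.7e-05 by limma. The measured fold of 10.5 starts from a P3 mean of 3.92, which is at the background of 3.91. Starburst cells at P18 had the highest level of any group and starburst cells at P3 the lowest, and neither overlapped the Arc arrays in between. The P1 array, at 4.42, was the Arc array nearest to starburst cells at P3. All 5 genes were free of overlap between the starburst ages, as were 27.0% of all genes.

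**Figure D2:**
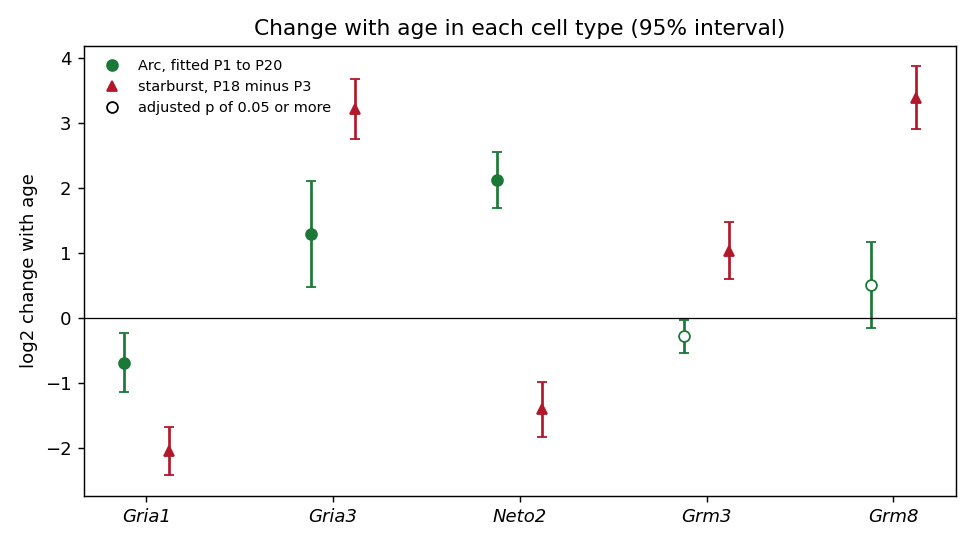
Log2 change with age of the 5 genes in Arc cells (green circles, fitted change from P1 to P20 over 21 arrays) and starburst cells (red triangles, P18 minus P3, 3 arrays each), with 95% intervals; open symbols did not pass the adjusted threshold of 0.05. Neto2 stands above 0 in Arc and below 0 in starburst cells, at 2.13 and -1.40.

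The cell types were compared at matched ages in a fit of 12 arrays, with the Arc arrays of P2 to P4 set beside starburst P3 and those of P17 to P19 beside starburst P18. The neighbouring days stood in for replicates. All 5 genes passed at both ages, beside 10.8% and 20.7% of all genes, and none overlapped between the cell types, as held for 28.1% and 44.4% of all genes. Near P3 Grm3 was higher in starburst cells and the other 4 genes were lower, where 5.13% of all genes were higher and 5.66% lower. Near P18 Grm3 and Grm8 were higher and Gria1, Gria3 and Neto2 lower, where 9.69% of all genes were higher and 1500 of 13617 were lower.

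Grm3 was at least 5.79-fold higher in starburst cells near P3 and at least 11.9-fold higher near P18, with Arc cells set to background (measured differences of 3.69 ± 0.19 and 4.88 ± 0.19, SE, n = 3 and 3, adjusted p = 4.33e-08 and 1.89e-09 by limma). Neto2 was lower in starburst cells by 6.56-fold near P3 and by at least 24.5-fold near P18. Its measured differences were -2.71 ± 0.27 and -5.63 ± 0.27 (SE, n = 3 and 3) at adjusted p = 1.66e-05 and 7.78e-09 by limma.

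Gria3 was at least 11.7-fold lower in starburst cells near P3 (measured difference -3.58 ± 0.22, SE, adjusted p = 1.91e-07 by limma) and 2.34-fold lower near P18 (-1.23 ± 0.22, SE, adjusted p = 0.00173). The latter did not pass with 5 Arc arrays per age, P1 to P5 and P16 to P20 (adjusted p = 0.102). Grm8 changed sides, with a difference of -2.77 ± 0.19 (SE) near P3 at adjusted p = 4.67e-07 and of 0.69 ± 0.19 (SE) near P18 at adjusted p = 0.022 by limma. The higher level near P18 was not called when arrays were centred on their medians (0.50, adjusted p = 0.117), with 5 Arc arrays per age (adjusted p = 0.179), without the Arc array of P17 (adjusted p = 0.09) or without starburst P18 replicate 2 (adjusted p = 0.083).

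Gria1 was close in the cell types near P3, with a difference of -0.59 ± 0.16 (SE, n = 3 and 3) at adjusted p = 0.0287 by limma, and lay further apart near P18, at -1.77 ± 0.16 (SE) and adjusted p = 3.07e-06. The small difference near P3 was not called after cyclic loess (-0.35, adjusted p = 0.171), after quantile normalization (adjusted p = 0.102) or with 5 Arc arrays per age (adjusted p = 0.328). It was also lost without the Arc array of P4, starburst P3 replicate 1 or starburst P3 replicate 3 (adjusted p of 0.119, 0.0608 and 0.0888).

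**Figure D3:**
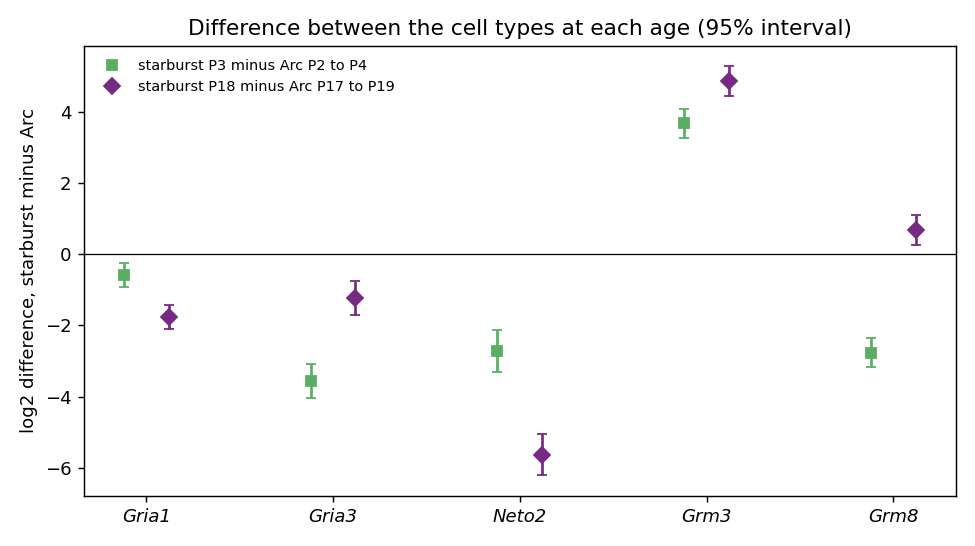
Log2 difference between starburst and Arc cells for the 5 genes near P3 (squares) and near P18 (diamonds), 3 arrays per group, with 95% intervals; values above 0 are higher in starburst cells. Grm3 stands above 0 at both ages, Grm8 moves from -2.77 to 0.69, and Neto2 reaches -5.63.

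An interaction term in the same 12 arrays, which leave out P1, tested whether the change with age differed between Arc and starburst cells. All 5 genes passed, 3 with a higher and 2 with a lower change in starburst cells, beside 4.02% of all genes, 1.67% higher and 2.36% lower. As the genes were chosen with earlier results of these data known, the counts are a description. Neto2 changed by 1.52 in Arc and -1.40 in starburst cells, a difference of -2.92 ± 0.38 (SE) at adjusted p = 0.000537 by limma. Its starburst mean at P18 was below background, and with that mean set to background the starburst change was -0.38, so the size of the difference is not known. For Grm8 the changes were -0.06 and 3.39, which differed by 3.46 ± 0.27 (SE) at adjusted p = 7.09e-06. Gria3 changed by 0.87 and 3.22, which differed by 2.35 ± 0.31 (SE) at adjusted p = 0.000618 by limma. This was not called with 5 Arc arrays per age (2.16, adjusted p = 0.0906), which brings in P1. The starburst means at P3, 3.92 for Grm8 and 3.89 for Gria3, were at the background of 3.91, so both sizes rest on values at background.

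Gria1 changed by -0.86 in Arc and -2.04 in starburst cells, differing by -1.18 ± 0.22 (SE) at adjusted p = 0.00721 by limma. For Grm3, below background in Arc cells at both ages, the measured difference was 1.19 ± 0.28 (SE) at adjusted p = 0.0259, and its size rests on values that are not above background. The Grm3 call was lost after quantile normalization (adjusted p = 0.0732) and without any of the Arc arrays of P2, P3 or P18, starburst P3 replicate 1 or starburst P18 replicate 3 (adjusted p between 0.0506 and 0.0754).

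Gria2 and Gria4 are the other AMPA receptor genes. Gria2, whose product sets the calcium permeability of AMPA receptors, had a trend of -0.05 ± 0.17 (SE, adjusted p = 0.83 by limma) in Arc cells. It rose in starburst cells by 0.63 ± 0.16 (SE) at adjusted p = 0.0458, which was not called after median centring (adjusted p = 0.0766). Gria4 had a trend of 0.25 ± 0.19 (SE, adjusted p = 0.303) in Arc cells and rose by 0.77 ± 0.17 (SE, adjusted p = 0.0199) in starburst cells. With the members Gria1 and Gria3 included, 3 of the 4 measured AMPA receptor genes were higher and 1 lower in starburst cells at P18. Of all genes 4.76% were higher and 3.89% lower. Without these members 2 of 2 were higher, and 1 of 2 after median centring.

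Neto2 is read beside the kainate receptor genes and its relative Neto1. Of 5 measured kainate and delta receptor genes, 2 were higher and 3 lower with age in Arc cells, and 0 were higher and 2 lower in starburst cells, with list medians of -0.58 and -0.12. Of all genes 14.7% were higher and 23.0% lower in the Arc trend, and 4.76% and 3.89% in starburst cells, against which this and the following lists are read. The higher call of Grik5 was lost after cyclic loess (adjusted p = 0.187) and quantile normalization (adjusted p = 0.424). Grik1, a kainate receptor subunit, rose in Arc cells by 1.59 ± 0.28 (SE, adjusted p = 8.13e-05 by limma), from a mean of 4.11 in early to 5.08 in late arrays. In starburst cells it was below background at both ages, at 3.0 and 2.94. Grik1 is also on the bipolar cell list, whose mean lay between 3.35 and 3.77 in early and between 3.70 and 3.94 in late Arc arrays, and its part was not tested. Grik2, another kainate subunit, fell by 1.28 ± 0.30 (SE, adjusted p = 0.00167) on the log2 scale in Arc cells and fell by 1.19 ± 0.16 (SE, adjusted p = 0.0019) in starburst cells. Neto1 fell by 0.62 ± 0.14 (SE, adjusted p = 0.00167) in Arc cells, from a mean of 3.52 in early arrays to 3.07, below background, in late arrays, and had means below background in starburst cells, where 1 P18 array read 4.07.

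Among 10 measured auxiliary genes, Neto2 included, 3 were higher and 2 lower with age in Arc cells, and 1 was higher and 3 lower in starburst cells. The medians were 0.08 and -0.15. The higher call of Cacng2 in Arc cells was lost after cyclic loess (adjusted p = 0.0948) and quantile normalization (adjusted p = 0.164). Cacng4, which encodes an AMPA receptor auxiliary protein of the TARP family, fell by 1.18 ± 0.16 (SE, adjusted p = 4.01e-06 by limma) in Arc and fell by 1.03 ± 0.17 (SE, adjusted p = 0.00628) in starburst cells. Cacng5, a further TARP gene, rose by 0.66 ± 0.21 (SE, adjusted p = 0.017 by limma) in Arc cells and by 1.70 ± 0.21 (SE, adjusted p = 0.00109) in starburst cells. Cnih2, a cornichon homologue that binds AMPA receptors, fell in starburst cells by 1.23 ± 0.16 (SE, adjusted p = 0.00138). Its Arc trend did not pass (-0.26, adjusted p = 0.101).

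Of 5 measured metabotropic receptor genes, 1 was higher and 1 lower with age in Arc cells, and 3 were higher in starburst cells: Grm3, Grm8 and Grm7. Without the members Grm3 and Grm8, 1 of 3 was higher in starburst cells, at a list median of -0.14. In Arc cells the lower call, Grm6, was lost after median centring, cyclic loess and quantile normalization (adjusted p of 0.199, 0.195 and 0.132), and the higher call, Grm7, after quantile normalization (adjusted p = 0.0906). Grm7, like Grm8 a group III receptor, rose in starburst cells by 1.71 ± 0.28 (SE, adjusted p = 0.00566 by limma). Its mean there went from 3.98, close to the background of 3.91, to 5.68. Of 10 measured signalling partners of these receptors, 6 were higher and 2 lower with age in Arc cells, and 2 were higher and 2 lower in starburst cells. The lower call of Rgs7 in Arc cells was lost after median centring, cyclic loess and quantile normalization (adjusted p of 0.149, 0.0717 and 0.0881). Adcy2, an adenylyl cyclase, rose by 0.77 ± 0.18 (SE, adjusted p = 0.00158 by limma) in Arc cells and by 2.26 ± 0.19 (SE, adjusted p = 0.000155) in starburst cells. Gnai3, an inhibitory G protein subunit, fell by 0.87 ± 0.22 (SE, adjusted p = 0.0033) in Arc cells and by 1.06 ± 0.22 (SE, adjusted p = 0.0171) in starburst cells.

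NMDA receptor genes, also measured as 5 genes, had 2 higher and 1 lower in the Arc trend and 1 higher in starburst cells. The lower call, Grin3b, was lost under the same 3 scalings (adjusted p of 0.296, 0.272 and 0.148). Grin2a rose in Arc cells by 2.67 ± 0.21 (SE, adjusted p = 2.63e-10 by limma), from a mean of 3.72 to 5.65. Grin2b rose in starburst cells by 1.07 ± 0.18 (SE, adjusted p = 0.00681), from 4.15 to 5.22. Both encode glutamate-binding subunits.

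Genes of receptor scaffolds and trafficking had 10 of 15 higher and 1 lower with age in Arc cells, at a median of 0.72, and 7 higher and 0 lower in starburst cells, at a median of 0.34. The lower call, Dlgap2, was lost under all 3 scalings (adjusted p of 0.271, 0.288 and 0.201). The higher call of Dlg3 in Arc cells was lost after cyclic loess (adjusted p = 0.128) and quantile normalization (adjusted p = 0.276). The higher call of Dlg2 in starburst cells was lost after median centring (adjusted p = 0.053). Nsf, the membrane fusion ATPase, rose by 2.86 ± 0.17 (SE, adjusted p = 3.57e-12 by limma) in Arc and by 1.52 ± 0.14 (SE, adjusted p = 0.0002) in starburst cells. Nptx1, a secreted pentraxin that clusters AMPA receptors, rose by 2.45 ± 0.14 (SE) and 1.69 ± 0.21 (SE). Of 7 genes of glutamate uptake and vesicular transport, 3 were higher and 2 lower in Arc cells and 1 was higher in starburst cells. The lower call of Slc1a6 in Arc cells was lost under all 3 scalings (adjusted p of 0.0649, 0.0717 and 0.0674 by limma). Glul, a higher call with an Arc trend of 3.61, is also on the Muller glia list, whose part was not tested. Over all 56 measured list genes other than the members, 26 were higher and 12 lower in the Arc trend, at a median of 0.23, and 15 were higher and 6 lower in starburst cells, at a median of 0.03. After cyclic loess these counts were 23 and 8, and 15 and 6.

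**Figure D4:**
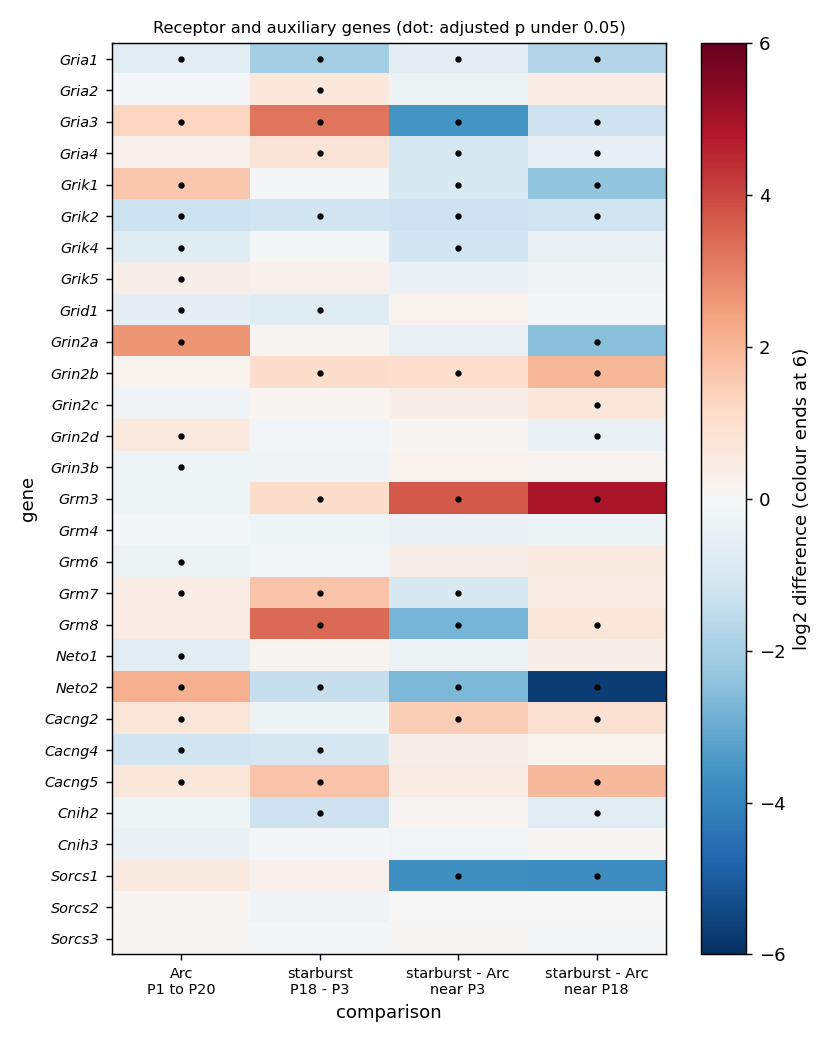
Log2 differences of 29 receptor and auxiliary genes (rows) in 4 comparisons (columns), red for higher and blue for lower in the first named group or at the later age, with a dot where the adjusted p was under 0.05. The strongest colours are those of Grm3 (4.88) and Neto2 (-5.63) in the comparison of starburst with Arc cells near P18.

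The genes most like each member over the 28 arrays were taken from those with a mean above the median of all genes. The points share the gap between the cell types and, within Arc cells, the order of days, so the correlations are a description. The values within Arc cells in this and the next paragraph include P1 and were not computed without it. Gria3 was closest to Pde3a, a phosphodiesterase gene, with r = 0.989 over 28 arrays and 0.971 over the 21 Arc arrays of P1 to P20, followed by Gria4 (0.943) and Negr1 (0.933). Neto2 was closest to Syt7, a synaptotagmin (0.988 and 0.926), Gabra3, a GABA-A receptor subunit (0.988 and 0.927), and Tenm4, a teneurin (0.981). Pde3a had means of 8.08 in late Arc arrays, 3.43 in starburst cells at P3 and 6.52 at P18. In the P1 array Pde3a read 4.69 and Gria3 5.0, each the lowest of the early Arc arrays.

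Gria1 was closest to Cadm1, a cell adhesion gene (0.935), Fnbp1l (0.923) and Ttc28 (0.918). Grm8 was closest to Chgb, which encodes the secretory granule protein chromogranin B (0.953), with Gria3 next (0.873) and Vegfa after it (0.836). Grm3 was closest to Lrp4, Tenm2 and Megf11 (0.987, 0.986 and 0.985), for which the values within Arc cells were 0.658, 0.392 and 0.068. For Grm3 the likeness over 28 arrays therefore goes with the level difference between the cell types, since its Arc values are at background.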

How the data were processed

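RNA of 200 sorted cells per sample was hybridised to 28 arrays. Per the submitters' processing notes the authors used RMA in R 2.11.1 and genome build mm8. The authors deposited log2 values, a base taken here from RMA's convention, since no label states it. It is not given in the sources used here which arrays were normalized together, or if triplicates, of which the design speaks, were averaged into the Arc arrays.

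Of 15170 rows, 13720 had 1 gene symbol, 869 several and 581 none, per the platform annotation. For 102 genes with several rows the row with the highest mean was kept, leaving 13617 genes, without a filter on low values. Tests used limma 3.58.1 in R 4.3.3 (eBayes with a trend, two-sided, Benjamini-Hochberg adjustment at 0.05). Neighbouring Arc days stood in for replicates. No pairing of the samples by starburst replicate number was detected: correlations of same-numbered deviations were 0.05, 0.02 and -0.04. So few arrays cannot exclude it. The fits were tested on simulated data. Named genes were the 5 members, list genes that passed in some comparison and the 3 most alike genes per member. Members and lists were chosen with earlier results of these data known. The number of arrays limits the precision.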

Additional observations from a re-analysis of the deposited data

Results flagged for a closer look

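Of the 15 sets of 7 Arc arrays examined (5 genes in 3 windows), 4 held an array far from the others by Dixon's criterion. About 1 of 20 sets of independent normal values meets it. The days here are ordered and the genes share the same arrays, so that rate gives no measure of chance for the 4 sets. In 3 of the 4 sets it was the P1 array that lay lowest in the early window. It read 5.67 for Gria1, 5.0 for Gria3 and 4.42 for Grm8, the last set apart by 0.875 of the window's range. The fourth was the P18 array of the late window for Grm3, at 1.86, a level under background.

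The change from near P3 to near P18 differed between starburst and Arc cells for all 5 genes by limma's interaction term. As starburst minus Arc, the difference was -1.18 for Gria1, 2.35 for Gria3, -2.92 for Neto2, 1.19 for Grm3 and 3.46 for Grm8. The sizes for Neto2, Grm3 and Gria3 rest on means below background. These were Neto2 in starburst cells at P18, Grm3 in Arc cells at both ages and Gria3 in starburst cells at P3. For Grm8 the starburst mean at P3, 3.92, was at the background of 3.91.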

How the results depend on the processing

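Of 792 repeats of the tests on the 5 genes, 25 lost a call, 2 gained a call, 3 turned direction and the others kept direction and call. The 3 turns came without the P1 array, and none was called before or after: without single arrays the Grm8 trend ranged from -0.036 to 0.65, and middle against early from -0.019 to 0.53 for Gria3 and from -0.27 to 0.12 for Grm8. The gained calls were the Grm8 trend against the logarithm of the day and the Grm3 trend without P4 (-0.34, adjusted p = 0.029). With a replicate block the starburst comparison called 1060 genes in place of 1178 and kept all 5 members, with adjusted p from 7.22e-05 to 0.0101. The block was run for this comparison alone. Grm3, being dim in Arc cells, was not among the genes tested in the Arc trend and windows under the filter on low values.

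Counts over all genes moved most for middle against early Arc arrays, from 67 to 0 with median centring (1449 at an unadjusted p under 0.05 by limma), 112 with quantile normalization, 115 with the filter, 42 with P6 as 1 array and 180 with other windows, and between 0 and 272 without single arrays. The Arc trend called 1966 genes over P1 to P16. Starburst P18 against P3 called 2251 in a fit of all 28 arrays. Starburst against Arc near P3 called 2470 with 5 Arc arrays per age. Without single arrays late against middle ranged from 580 to 1162, the cell types near P3 from 931 to 1507 and near P18 from 1586 to 2873. Median centring turned the split of the Arc trend from 2005 higher and 3132 lower to 2462 and 1389, and that near P18 from 1320 and 1500 to 544 and 2225. It moved the median change of all genes in the Arc trend from -0.13 to -0.01, and near P18 from 0.10 to -0.09. No probe-level detection calls were used, so levels near background limit Grm3 in Arc cells, Neto2 in starburst cells at P18, and Gria3 and Grm8 at P3.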

Other observations

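Within the 20 Arc arrays of P2 to P20 the values of Neto2 and Gria1 ran against each other, with r = -0.71, while with P1 included r was -0.32. Gria3 and Grm8, at r = 0.84 over 21 arrays, stood at 0.16 without P1. These are descriptions over arrays that share the order of days.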
